A study of Mus musculus with 6 samples.

Results

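Phospholipases C, the protein kinases C and D, diacylglycerol (DAG) kinases and the genes that work directly beside them were examined in the mouse Leydig tumor line MA-10 and in a STAR knockout line made from it. The members were all genes of the deposited table whose symbols match a list of families. It holds the phosphoinositide phospholipases C, the PKC and PKD isoforms, the DAG kinases, the phospholipases D, RasGRP and the IP3 receptors. The PI 4-kinases Pi4ka and Pi4kb, the PIP5K1 and PIP4K2 lipid kinases and the UNC13 proteins complete the list. The rule used names and no measured value, and it found 38 of the 14774 genes in the table. Earlier results of these data were known when it was chosen, and the study had named Pip5k1b as differing between the lines. In the mouse annotation, 59 symbols match the same rule, and the other 21 were not analysed here.

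RNA was sequenced from 3 libraries of wild-type MA-10 cells and 3 of STARKO1 cells. Both lines were grown normally and left untreated, and both come from a testis Leydig cell tumor line. STARKO1 is a single clone, grown from 1 sorted cell after CRISPR/Cas9 cutting of Star exon 2, so the knockout and the history of that clone cannot be told apart. The labels do not say whether the libraries of a line came from separate cultures. The study's methods give independent experiments as its general rule without naming the sequencing, so the spread between these libraries, which the p-values measure, may be technical.

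Phospholipase C splits the membrane lipid PIP2 into IP3, which opens calcium channels of the endoplasmic reticulum (the IP3 receptors), and DAG, which stays in the membrane. DAG recruits the conventional PKC isoforms, the calcium-independent isoforms other than the atypical ones, PKD, RasGRP and the UNC13 proteins that bind it. It is removed by DAG kinases, which turn it into phosphatidic acid. In Leydig cells luteinizing hormone acts mainly through cAMP, and the PLC and PKC branch is known as a modulator of steroid production.

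Library depth ranged from 14114349 to 19530054 estimated counts, and Star, the targeted gene, fell from 1064, 1261 and 697 counts in MA-10 to 48, 46 and 36 in STARKO1 (log2 fold change -5.09, SE 0.331, edgeR adjusted p = 0.00121). MA-10 replicate 1 stood apart from the other MA-10 libraries: its log2 levels correlated at r = 0.802 and 0.874 with them and at 0.949 to 0.955 with the STARKO1 libraries. All 9 Leydig markers were in the table and summed to 1500 to 1990 CPM (counts relative to library size, scaled by TMM) in MA-10 and 1410 to 1460 in STARKO1. One of them, Hsd3b1, fell from 27.8, 37.2 and 24.3 to 5.12, 5.72 and 4.72 CPM (log2 fold change -2.52, edgeR adjusted p = 0.00268). The sum hides moves in both directions that edgeR did not call. Without overlap, Cyp11a1 (610, 1120 and 777 against 432, 434 and 450 CPM) and Lhcgr were lower in STARKO1. Also without overlap, Cyp17a1 (2.12, 6.24 and 2.38 against 6.28, 10.5 and 8.93 CPM) and Nr5a1 were higher. Hsd17b3 had only 1 to 4 counts per library. Of the Sertoli, germ, macrophage, endothelial and fibroblast lists, 3, 1, 2, 2 and 2 markers were in the table. The endothelial pair summed to 26.4 to 41.5 CPM in MA-10 and 118 to 124 in STARKO1, with Cdh5 higher in STARKO1, and the fibroblast pair to 3.12 to 7.66 and 0.337 to 0.43 CPM. The defining markers Sox9, Amh, Ptprc, Kdr and Col1a1 are not among the genes analysed here, and the part of other cell types in the results below was not tested. Both groups are cultured lines and not tissue, and STARKO1 grew from 1 sorted cell. Within a line, fewer expressing cells and less RNA per cell cannot be told apart.

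Between the lines, 3 of the 36 members with enough counts for a test rose in STARKO1 and none fell. They were Plcb2, a phospholipase C beta, and Pip5k1b and Pip5k1c, kinases that make PIP2. These 3 are 8.33% of the tested members, against 9.04% of all 11939 genes tested by edgeR (adjusted p under 0.05), and on the higher side alone 4.3% of all genes passed. With no member called lower, 3 members had a lower level at an unadjusted p under 0.05 and DESeq2 called 2 lower (17.4% of all genes), where 4.74% of all genes were called lower by edgeR. In all, 8 members had an unadjusted p under 0.05, which is 22.2% of them against 37.6% of all genes. Dgkk and Plch2 had too few counts for a test. The median log2 fold change was 0.22 over the 36 members and -0.05 over all genes tested.

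The spread inside MA-10 was wide. The members together took 0.1884, 0.0731 and 0.1248% of the counts of MA-10 replicates 1, 2 and 3, and 0.1702 to 0.1723% in STARKO1. For 16 of 36 members the libraries of the lines did not overlap, 11 of them higher and 5 lower in STARKO1, which is 44.4% against 42.5% of all genes (21.5% higher, 21.0% lower). MA-10 replicate 1 lay nearer to the STARKO1 mean than to the other MA-10 libraries for 22 of 36 members (61.1%, against 68.9% of all genes). Without that library, 22 of 36 members were called, 18 higher and 4 lower, which is 61.1% against 65.7% of 12167 genes (34.0% higher, 31.7% lower). DESeq2 called 7 members and 28.4% of all genes, a fit with a gene length offset 5 and 10.4%, and library size scaling 2 and 2.76%.

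**Figure D1:**
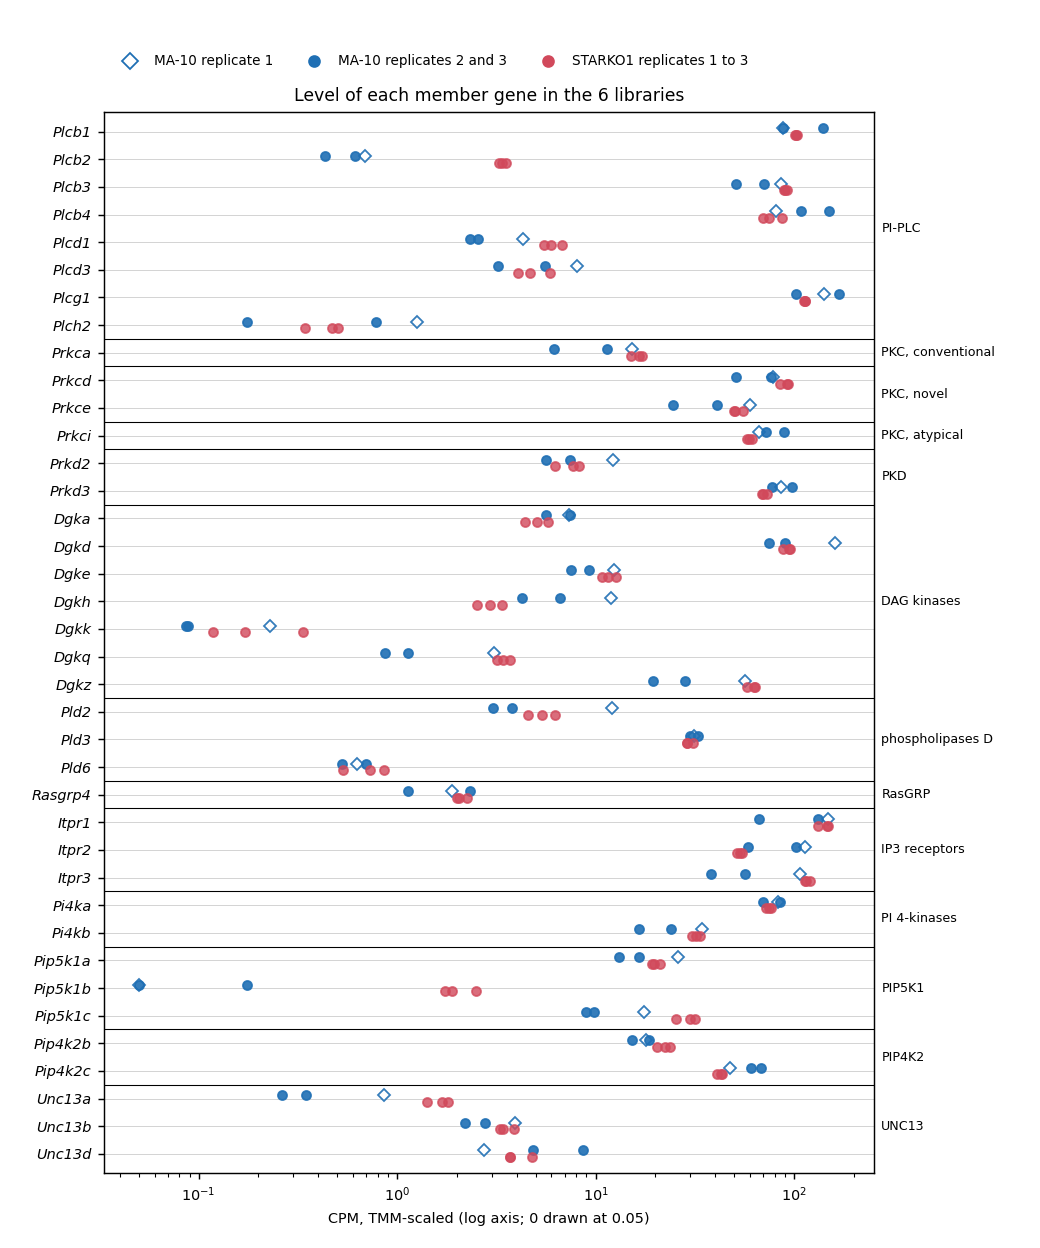
Level of the 38 members in each library, in TMM-scaled CPM on a log axis, grouped by class (PI-PLC, phosphoinositide phospholipases C). Open diamonds are MA-10 replicate 1, filled blue circles MA-10 replicates 2 and 3, and red circles the 3 STARKO1 libraries. A level of 0 is drawn at 0.05 and occurs in Pip5k1b. For Plcb2, Pip5k1b and Pip5k1c all STARKO1 points lie to the right of all MA-10 points, and MA-10 replicate 1 lies close to the STARKO1 points for Dgkz and Itpr3.

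Among the phospholipases C, the beta isoforms respond to Gq and to G protein beta-gamma subunits, the gamma isoforms to tyrosine kinases, and the delta isoforms to calcium. Plcb2, best known from blood cells, measured 0.687, 0.434 and 0.616 CPM in MA-10 and 3.53, 3.36 and 3.26 CPM in STARKO1. All STARKO1 libraries were higher than all MA-10 libraries, with a log2 fold change of 2.51 (SE 0.287, edgeR adjusted p = 0.00642), and 5 to 12 counts per MA-10 library lay behind the low values. The adjusted p was between 0.0513 and 0.0603 when STARKO1 replicate 1, 2 or 3 was left out, and at most 0.041 when an MA-10 library was.

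Plcb2 remained a small part of the class. Per kilobase of exon it reached 0.513 ± 0.0206 CPM in STARKO1 (SD, n = 3), against 13.0 ± 0.266 for Plcb3 and 14.5 ± 0.0928 for Plcg1, the member with the highest level of the class in both lines. As a share of the summed CPM per kilobase of all 8 phospholipases C, Plcb2 took 0.203, 0.155 and 0.147% in MA-10 and 1.09, 1.02 and 1.02% in STARKO1. The class sum itself was 52.4 ± 10.6 in MA-10 and 49.3 ± 0.813 in STARKO1, a difference within the MA-10 spread (2-sided exact permutation p = 0.7, where 3 libraries against 3 cannot go below 0.1).

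The other beta isoforms did not pass the test. Plcb3 measured 85.8, 51.3 and 70.4 CPM in MA-10 and 92.6, 89.8 and 89.0 CPM in STARKO1, without overlap (log2 fold change 0.39, SE 0.211, edgeR adjusted p = 0.215, and 0.66 with 0.00651 without MA-10 replicate 1). Its exons overlap those of Ppp1r14b on the other strand, and the strand setting of the counting is not given in the sources used here. Plcb4 measured 81.5, 108 and 151 CPM in MA-10 and 75.2, 86.9 and 70.1 CPM in STARKO1, where MA-10 replicate 1 lay among the STARKO1 values (-0.55, SE 0.249, edgeR adjusted p = 0.153, and 0.0103 without that library). Plcb1 measured 88.1, 88.5 and 140 CPM against 101, 104 and 102 CPM, so that the STARKO1 values fell inside the MA-10 range.

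Plcg1 measured 141, 103 and 168 CPM in MA-10 and 114, 114 and 113 CPM in STARKO1, again inside the MA-10 range (log2 fold change -0.27, SE 0.208). Plcd1 was at 4.30, 2.34 and 2.55 CPM in MA-10 and 5.94, 5.48 and 6.74 CPM in STARKO1. These groups did not overlap, and Plcd1 missed the threshold in edgeR (log2 fold change 0.96, SE 0.286, adjusted p = 0.0703), with 1.39 and 0.000624 without MA-10 replicate 1. Plcd3 overlapped between the lines, at 3.21 to 8.07 CPM and 4.09 to 5.90 CPM. Plch2 had 2 to 22 counts in MA-10 and 8 or 9 in STARKO1.

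Promoters of Plcb2 and Plcb3 are shown because one belongs to the called beta isoform, and the other holds the single SF-1 site found in any member promoter (SF-1 is the nuclear receptor that drives steroidogenic genes). They are the 250 bases before the RefSeq start on GRCm38.p6, 5′ to 3′ on the gene's strand, Plcb2 at chr2:118728439-118728688 and Plcb3 at chr19:6969815-6970064, both on the minus strand. Capitals mark matches, on either strand, to the SF-1 site CAAGGTCA, the GC box GGGCGG, the AP-1 site TGANTCA, the CRE site TGACGTCA and the TATA box TATAAA.
Plcb2: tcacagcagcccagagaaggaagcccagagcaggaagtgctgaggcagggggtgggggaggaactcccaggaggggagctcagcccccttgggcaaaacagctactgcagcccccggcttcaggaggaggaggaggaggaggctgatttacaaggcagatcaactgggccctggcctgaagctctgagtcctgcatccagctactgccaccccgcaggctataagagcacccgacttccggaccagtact
Plcb3: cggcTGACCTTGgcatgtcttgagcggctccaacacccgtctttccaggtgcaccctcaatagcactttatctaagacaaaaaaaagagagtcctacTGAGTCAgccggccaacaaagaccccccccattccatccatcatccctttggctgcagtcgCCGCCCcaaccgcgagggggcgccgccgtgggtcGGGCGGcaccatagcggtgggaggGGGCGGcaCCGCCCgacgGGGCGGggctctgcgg
The Plcb2 window held none of these letters and 4 CpG dinucleotides. The Plcb3 window held 20 CpG, 5 GC boxes, 1 AP-1 match and the SF-1 match. RefSeq entries matched 32 of the 38 members with 47 promoters, some of which overlap each other (in Dgka, Pld2 and Prkd2). Of these, 76.6% held a GC box, against 32.7% of 32851 promoters of the same length. Their median CpG number was 18 against 6 over all promoters. The 32851 promoters were not limited to genes of the table, as the members were. No comparison with promoters of expressed genes was made, so these differences cannot be credited to the members as a family. SF-1 letters were in 2.1% of member promoters and 1.3% of all, AP-1 letters in 4.3 and 6.7%, TATA letters in 8.5 and 12.4%, and CRE letters in 0 and 1.5%. A match is a description of the letters and not a bound site.

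Of the IP3 receptors, the calcium channels opened by IP3, Itpr2 was lower and Itpr3 higher in every STARKO1 library than in any MA-10 library. Neither passed the test in edgeR. Itpr2 measured 114, 58.7 and 103 CPM in MA-10 and 55.0, 51.4 and 53.4 CPM in STARKO1. All STARKO1 values lay below all MA-10 values (log2 fold change -0.79, SE 0.258, edgeR adjusted p = 0.0834), and without MA-10 replicate 2 Itpr2 was called lower. Of 10 other fits with all libraries, 2 called Itpr2 lower: DESeq2 (adjusted p = 0.0377) and edgeR with the gene length offset (adjusted p = 0.0427). Itpr3 measured 107, 38.2 and 57.0 CPM in MA-10 and 114, 120 and 115 CPM in STARKO1. Here all STARKO1 values were higher (0.78, SE 0.360, adjusted p = 0.157), with MA-10 replicate 1 just under them, and without that library the log2 fold change was 1.37 (adjusted p = 0.000333). Itpr1 measured 149, 66.3 and 132 CPM against 148, 133 and 147 CPM, with overlap.

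Shares within a class do not depend on how libraries are scaled. Of the summed CPM per kilobase of the 3 receptors, Itpr2 took 27.8, 33.5 and 33.9% in MA-10 and 15.2, 14.5 and 14.8% in STARKO1. Itpr3 took 42.8, 35.8 and 30.8% in MA-10 and 51.7, 55.3 and 52.3% in STARKO1. Neither share overlapped between the lines, while Itpr1 took 29.4 to 35.3% and 30.2 to 33.1%. Such shares were not particular to this class or to the pairs described below. The shares of Plcb2, Plcb3, Plcd1, Plcg1, Dgkh, Dgkq, Unc13a, Pi4ka and Pi4kb did not overlap either. For both Itpr2 and Itpr3 the 2-sided exact permutation p was 0.1, the smallest that 3 against 3 libraries allow, and 0.194 after Benjamini-Hochberg adjustment over the 35 shares computed. Itpr3 per kilobase over Itpr2 per kilobase was 1.54, 1.07 and 0.91 in MA-10 and 3.39, 3.82 and 3.54 in STARKO1. The receptors summed to 20.0 ± 7.95 CPM per kilobase in MA-10 and 24.3 ± 0.229 in STARKO1 (exact permutation p = 0.4).

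**Figure D2:**
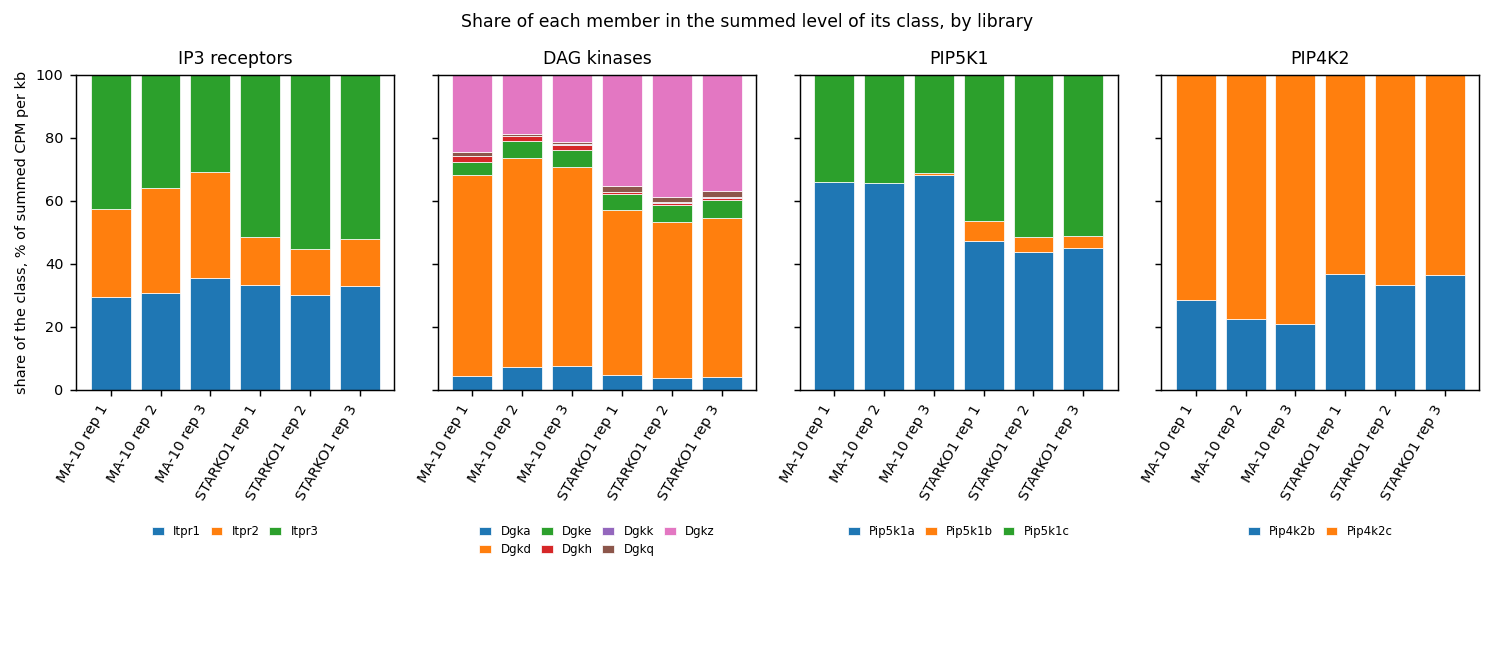
Share of each member in the summed CPM per kilobase of its class, in percent, for each of the 6 libraries (rep, replicate), in the IP3 receptors, DAG kinases, PIP5K1 and PIP4K2 kinases. Segments of a bar are the members of the class. In every STARKO1 bar the segments of Itpr3, Dgkz, Pip5k1c and Pip4k2b are larger, and those of Itpr2, Dgkd, Pip5k1a and Pip4k2c smaller, than in any MA-10 bar.

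No DAG effector among the members passed the test in edgeR, 1 of them (Unc13a) had an unadjusted p under 0.05, and DESeq2 called that one higher. Without MA-10 replicate 1 edgeR called 5 of them higher: Prkca (log2 fold change 0.98, adjusted p = 0.00734), Prkcd (0.58, 0.0224), Prkce (0.75, 0.0142), Unc13a (2.49, 0.00114) and Unc13b (0.59, 0.0499). In that fit 34.0% of all 12167 genes tested were called higher, so these calls are not particular to the effectors. With all 6 libraries, Prkcd, a PKC that needs DAG but not calcium, was the PKC with the highest level per kilobase in STARKO1. It measured 78.1, 51.1 and 77.0 CPM in MA-10 and 92.7, 85.4 and 93.4 CPM in STARKO1, with no overlap (log2 fold change 0.40, SE 0.203, edgeR adjusted p = 0.191). Prkce, the other isoform of this kind, measured 59.8, 24.5 and 40.9 CPM against 50.1, 55.1 and 50.3 CPM, and MA-10 replicate 1 was the highest of the 6. Prkca, the single conventional PKC in the table, which needs calcium and DAG, measured 15.3, 6.16 and 11.4 CPM in MA-10 and 17.1, 15.1 and 16.6 CPM in STARKO1. Its groups met at 15.1 and 15.3 CPM (0.57, SE 0.317, adjusted p = 0.223).

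Prkci, an atypical PKC that does not bind DAG, measured 66.7, 72.7 and 89.4 CPM in MA-10 and 59.3, 61.7 and 58.1 CPM in STARKO1. All STARKO1 values were lower, and the test was not passed (log2 fold change -0.35, SE 0.166, edgeR adjusted p = 0.165, and 0.0417 without MA-10 replicate 1). The PKDs act downstream of PKC. Prkd3, the one with the higher level per kilobase, measured 86.5, 77.8 and 97.4 CPM in MA-10 and 70.0, 68.9 and 73.3 CPM in STARKO1, without overlap (-0.30, SE 0.153, adjusted p = 0.187). Prkd2 overlapped, at 5.64 to 12.3 and 6.25 to 8.30 CPM. With library size scaling the signs for Prkci, Prkd2 and Prkd3 turned positive.

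Unc13a encodes a DAG-binding priming factor of synaptic vesicles and had 15, 4 and 3 counts in MA-10 and 42, 24 and 30 in STARKO1. That is 0.859, 0.347 and 0.264 CPM against 1.81, 1.41 and 1.69 CPM, without overlap, and a log2 fold change of 1.65 (SE 0.454) that missed the threshold in edgeR (adjusted p = 0.0623). Its exons overlap those of Colgalt1 on the other strand. Unc13d, which serves granule release in blood cells, led the class per kilobase with 2.75, 8.67 and 4.84 CPM in MA-10 and 4.77, 3.71 and 3.71 CPM in STARKO1, with overlap. Unc13b overlapped as well (2.20 to 3.95 and 3.31 to 3.88 CPM). Rasgrp4, a DAG-dependent activator of Ras, measured 1.89, 2.34 and 1.14 CPM in MA-10 and 2.06, 2.00 and 2.25 CPM in STARKO1, again with overlap.

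The DAG kinases end the DAG signal, and the class was made up mainly of Dgkd and Dgkz. Dgkd measured 161, 74.9 and 90.5 CPM in MA-10 and 94.2, 87.8 and 95.2 CPM in STARKO1, where MA-10 replicate 1 was the highest value (log2 fold change -0.24, SE 0.294, and 0.25 without that library). Dgkz measured 56.6, 19.5 and 28.1 CPM in MA-10 and 58.2, 63.0 and 63.7 CPM in STARKO1. The lowest STARKO1 value lay just above MA-10 replicate 1 (0.82, SE 0.374, edgeR adjusted p = 0.155), and without that library the difference was 1.46 (adjusted p = 0.000198).

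Within the class, Dgkd took 64.0, 66.2 and 63.2% of the summed CPM per kilobase in MA-10 and 52.5, 49.7 and 50.7% in STARKO1. Dgkz took 24.5, 18.8 and 21.4% in MA-10 and 35.4, 38.9 and 37.1% in STARKO1. MA-10 replicate 1 lay between the other MA-10 libraries for Dgkd, and neither share overlapped between the lines (exact permutation p = 0.1, adjusted 0.194). The class as a whole summed to 24.7 ± 10.6 CPM per kilobase in MA-10 and 26.5 ± 0.83 in STARKO1 (exact permutation p = 0.9).

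Dgkh, a plasma membrane and endosome DAG kinase, was the member with the most negative log2 fold change. It had 210, 49 and 75 counts in MA-10, or 12.0, 4.25 and 6.60 CPM, and 59, 50 and 60 counts in STARKO1, or 2.54, 2.95 and 3.37 CPM. All STARKO1 values were lower, at a log2 fold change of -1.38 (SE 0.394) that missed the threshold (edgeR adjusted p = 0.0662). Dgkh was called lower without MA-10 replicate 1 (-0.80, adjusted p = 0.0263) and without MA-10 replicate 2. Dgkq measured 3.09, 0.867 and 1.14 CPM in MA-10 and 3.40, 3.18 and 3.71 CPM in STARKO1 (0.96, SE 0.467, adjusted p = 0.175), and without MA-10 replicate 1 it was called higher (1.85, adjusted p = 0.000663). Dgka (5.64 to 7.40 and 4.42 to 5.76 CPM) and Dgke (7.55 to 12.4 and 10.8 to 12.7 CPM) overlapped, with Dgke called higher without MA-10 replicate 1 (0.57, adjusted p = 0.015), and Dgkk had 1 to 4 counts in MA-10 and 2 to 6 in STARKO1.

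**Figure D3:**
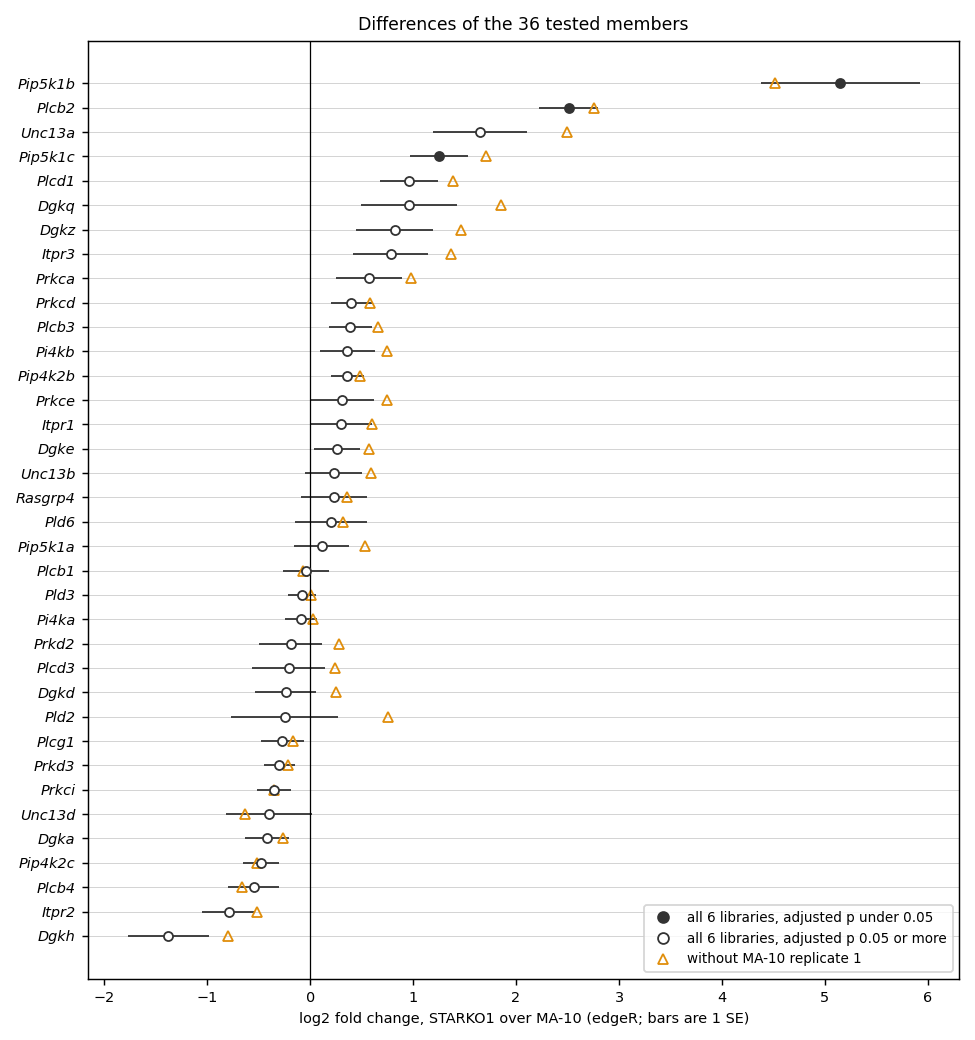
Log2 fold change of STARKO1 over MA-10 for the 36 tested members, with bars of 1 SE (edgeR). Filled circles are the 3 genes with an adjusted p under 0.05, open circles the others, and triangles the values without MA-10 replicate 1. The Pip5k1b value rests on 2 counts in MA-10 and depends on how low counts are fitted. The triangle crosses 0 against its circle for Pld2, Prkd2, Plcd3, Dgkd, Pi4ka and Pld3.

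Phospholipase D makes phosphatidic acid from phosphatidylcholine, a route beside the DAG kinases, although of the members measured only Pld2 is a classical enzyme of this kind. Pld3, a lysosomal exonuclease with the highest level of the class, measured 31.2, 32.8 and 29.8 CPM in MA-10 and 28.8, 30.9 and 28.9 CPM in STARKO1. Pld2 measured 12.1, 3.04 and 3.79 CPM in MA-10 and 6.28, 5.36 and 4.55 CPM in STARKO1. The STARKO1 values of Pld2 lay between MA-10 replicate 1 and the other MA-10 libraries, and the log2 fold change went from -0.25 to 0.76 (edgeR adjusted p = 0.0194) without that replicate. Pld6, a mitochondrial surface protein, overlapped at 0.528 to 0.694 and 0.531 to 0.860 CPM.

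PIP2 is made by PIP5K1 kinases from the product of the PI 4-kinases, and the PIP5K1 class held the other called members. Pip5k1b, at chr19:24294794-24555873 on the minus strand (GENCODE, GRCm38), had 0, 0 and 2 counts in MA-10 and 58, 32 and 31 in STARKO1. Over the pooled libraries the ratio of CPM was 42.1, with an exact 95% interval of 11.4 to 351 that covers counting error only (edgeR adjusted p = 0.0147). No RefSeq promoter matched Pip5k1b. The adjusted p was 0.0814 to 0.0928 when STARKO1 replicate 1, 2 or 3 was left out. Even in STARKO1 it took 4.01 to 6.46% of the class per kilobase.

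Pip5k1c, at chr10:81292963-81319974 on the plus strand, measured 17.5, 8.93 and 9.86 CPM in MA-10 and 25.5, 29.9 and 31.6 CPM in STARKO1. All STARKO1 libraries were higher, with a log2 fold change of 1.25 (SE 0.283, edgeR adjusted p = 0.043). The adjusted p was 0.0904 to 0.185 when MA-10 replicate 2 or 3 or any STARKO1 replicate was left out, and 5.05e-05 without MA-10 replicate 1. The call was also lost with upper quartile scaling (adjusted p = 0.0562), library size scaling (0.107) and at least 10 counts in every library (0.0505), at log2 fold changes of 1.28 to 1.59. Pip5k1a overlapped between the lines at 25.9, 13.1 and 16.5 CPM and 19.7, 19.3 and 21.1 CPM (0.11, SE 0.263), and without MA-10 replicate 1 it too was called higher (0.53, adjusted p = 0.0132).

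The promoter of Pip5k1c (RefSeq, GRCm38.p6, chr10:81292713-81292962, plus strand) is shown beside that of Plcb2 because both genes were called higher, with capitals as above.
Pip5k1c: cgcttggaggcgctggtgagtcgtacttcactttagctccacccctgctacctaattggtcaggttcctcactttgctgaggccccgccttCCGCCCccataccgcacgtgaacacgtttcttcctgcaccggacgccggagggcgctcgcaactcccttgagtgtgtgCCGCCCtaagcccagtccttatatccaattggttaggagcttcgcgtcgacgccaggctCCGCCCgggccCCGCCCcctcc
It held 21 CpG and 4 GC boxes, against 4 CpG and no GC box before Plcb2.

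Pip5k1a took 66.0, 65.7 and 68.0% of the summed CPM per kilobase in MA-10 and 47.1, 43.7 and 44.8% in STARKO1. Pip5k1c took 34.0, 34.3 and 31.2% in MA-10 and 46.5, 51.7 and 51.2% in STARKO1, with a mean level in STARKO1 beside that of Pip5k1a (5.06 ± 0.552 CPM per kilobase, against 4.58 ± 0.214), a gap of the size of their spread. MA-10 replicate 1 lay between the other MA-10 libraries in both shares, and the groups did not overlap (exact permutation p = 0.1, adjusted 0.194). The class sum was 8.97, 4.55 and 5.52 CPM per kilobase in MA-10 and 9.57, 10.1 and 10.8 in STARKO1 (exact permutation p = 0.1, adjusted 0.333 over the 10 classes with more than 1 member).

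PIP4K2 kinases act on a minor phosphoinositide. Pip4k2c measured 47.6, 68.3 and 60.8 CPM in MA-10 and 40.8, 42.7 and 43.3 CPM in STARKO1, lower in every library (log2 fold change -0.48, SE 0.178, edgeR adjusted p = 0.104). Pip4k2b measured 18.0, 18.7 and 15.2 CPM in MA-10 and 22.5, 20.4 and 23.7 CPM in STARKO1, higher in every library (0.36, SE 0.161, adjusted p = 0.152). The share of Pip4k2b in the class was 28.4, 22.3 and 20.8% in MA-10 and 36.6, 33.3 and 36.5% in STARKO1, without overlap (exact permutation p = 0.1, adjusted 0.194). Of the PI 4-kinases, only Pi4ka and Pi4kb are members, and Pi4k2a and Pi4k2b are counted in a pathway list below. Pi4ka measured 83.5, 69.8 and 85.2 CPM in MA-10 and 72.1, 76.9 and 74.6 CPM in STARKO1. Pi4kb measured 34.4, 16.5 and 24.0 CPM in MA-10 and 30.5, 32.2 and 33.6 CPM in STARKO1, and both genes overlapped between the lines. Their shares within this pair did not overlap, with Pi4kb at 54.5, 40.6 and 45.0% in MA-10 and 55.0, 54.8 and 56.6% in STARKO1. Without MA-10 replicate 1 edgeR called Pi4kb (0.75, adjusted p = 0.00607) and Pip4k2b higher and Pip4k2c lower.

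Differences between the log2 fold changes of paired isoforms were chosen after their values were seen and are given without a test. Itpr3 minus Itpr2 was 1.57, Dgkz minus Dgkd 1.06, Pip5k1c minus Pip5k1a 1.14 and Pip4k2b minus Pip4k2c 0.84. In the first 3 pairs the gene whose share was larger in STARKO1 than in MA-10 was the one richer in GC: Itpr3 57.5% against Itpr2 49.6%, Dgkz 59.6% against Dgkd 52.3%, and Pip5k1c 59.1% against Pip5k1a 49.7%. Pip4k2b and Pip4k2c had 53.8 and 53.4%. With a per-library trend on GC content removed, the 4 differences were 1.40, 0.94, 0.93 and 0.84, and without MA-10 replicate 1 they were 1.89, 1.21, 1.18 and 1.00.

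Around the members, 5 lists of pathway genes held 191 symbols, of which 136 were in the table and 127 were tested. EdgeR called 10 of them, 7 higher and 3 lower in STARKO1, or 7.87% against 9.04% of all genes. Of 17 tested Gq receptors, G proteins and regulators of phospholipase C, 4 were higher and 1 was lower, with a median log2 fold change of 0.44. Oxtr, the oxytocin receptor, measured 63.2, 40.7 and 32.2 CPM in MA-10 and 144, 162 and 150 CPM in STARKO1 (log2 fold change 1.74, SE 0.268, edgeR adjusted p = 0.0155). Avpr1a, the vasopressin receptor of the Gq type, measured 21.5, 25.0 and 23.1 CPM against 38.6, 36.0 and 39.5 CPM (0.71, SE 0.146, adjusted p = 0.0348).

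F2r, the thrombin receptor, went the other way, from 42.1, 25.9 and 32.1 CPM in MA-10 to 3.83, 2.95 and 2.75 CPM in STARKO1 (log2 fold change -3.39, SE 0.259, edgeR adjusted p = 0.0022). Dlc1, whose product binds phospholipase C delta, rose by 1.58 (SE 0.248, adjusted p = 0.0167). Adra1d, an alpha-1 adrenergic receptor, had 38, 5 and 9 counts in MA-10 and 123, 97 and 130 in STARKO1 and was also called higher (adjusted p = 0.0416). None of these 5 genes overlapped between the lines. F2r was called in all 6 fits that left out a library. Dlc1 and Avpr1a were called in 2 of the 6, without MA-10 replicate 1 or 2, and Oxtr and Adra1d only without MA-10 replicate 1. In the fits that lost the call, without MA-10 replicate 3 or a STARKO1 library and for Oxtr and Adra1d also without MA-10 replicate 2, adjusted p was 0.0659 to 0.096 for Dlc1, 0.117 to 0.185 for Avpr1a, 0.0509 to 0.0918 for Oxtr and 0.0667 to 0.182 for Adra1d.

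**Figure D4:**
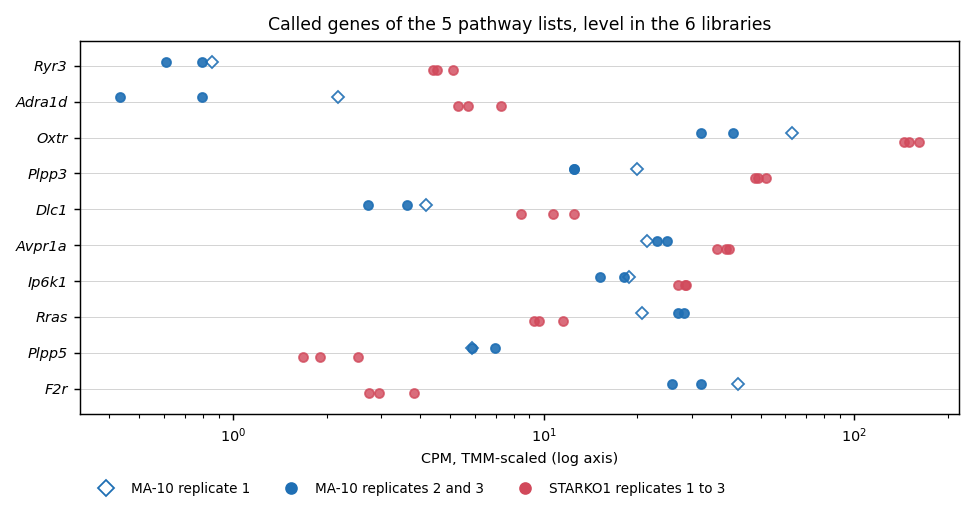
Level of the 10 called genes of the pathway lists in each library, in TMM-scaled CPM on a log axis. Symbols are open diamonds for MA-10 replicate 1, blue circles for MA-10 replicates 2 and 3 and red circles for STARKO1. Red points lie right of all blue ones for Ryr3, Adra1d, Oxtr, Plpp3, Dlc1, Avpr1a and Ip6k1 and left of them for Rras, Plpp5 and F2r.

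Of 29 tested genes of IP3 metabolism and the calcium store, 2 were higher. Ryr3, a ryanodine receptor and so another calcium channel of the store, measured 0.859, 0.607 and 0.793 CPM in MA-10 and 4.39, 4.54 and 5.11 CPM in STARKO1 (log2 fold change 2.61, SE 0.260, edgeR adjusted p = 0.00442). Ip6k1, a kinase of inositol hexakisphosphate, measured 18.8, 18.2 and 15.2 CPM against 27.0, 28.5 and 28.7 CPM (0.69, SE 0.155, adjusted p = 0.0433), and its adjusted p was under 0.05 in 1 of the 6 fits without a library. None of the 29 was called lower by edgeR, where 3 had an unadjusted p under 0.05 and DESeq2 called 3.

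Of 24 tested genes of DAG and phosphatidic acid turnover, Plpp3 was higher and Plpp5 lower. Both encode phosphatases that can turn phosphatidic acid into DAG, the reverse of the DAG kinase step. Plpp3 measured 19.9, 12.5 and 12.5 CPM in MA-10 and 47.9, 48.9 and 51.8 CPM in STARKO1 (log2 fold change 1.72, SE 0.225, edgeR adjusted p = 0.00913). Plpp5 measured 5.90, 5.90 and 6.96 CPM in MA-10 and 1.68, 2.53 and 1.91 CPM in STARKO1 (log2 fold change -1.62, SE 0.244, edgeR adjusted p = 0.0148), whereas no DAG kinase passed in edgeR (Dgkh had an unadjusted p of 0.0102 and was called lower by DESeq2). Among 30 DAG effectors, PKC anchors and substrates, Rras, a Ras-family GTPase, fell by 1.31 on the log2 scale (adjusted p = 0.0137) and none rose by edgeR, with 2 higher at an unadjusted p under 0.05 and 2 called higher by DESeq2. Plpp3, Plpp5 and Rras were each called in 2 of the 6 fits without a library, those without MA-10 replicate 1 or 2, and without MA-10 replicate 3 or a STARKO1 library adjusted p was 0.0585 to 0.0686, 0.0633 to 0.118 and 0.0652 to 0.104. None of the 27 tested genes of phosphoinositide supply and its phosphatases was called by edgeR, with 3 higher and 3 lower at an unadjusted p under 0.05 and 2 called by DESeq2. Without MA-10 replicate 1, 77 of the 127 genes were called (60.6%, against 65.7% of all genes).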

How the data were processed

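For each gene and each of the 6 libraries the deposited values are estimated counts, with no normalization by the authors; 54.2% of its genes have values that are not whole within 1e-06. Total RNA went into a stranded SMARTer Pico V2 library kit. The submitters' processing notes name STAR 2.6.1d, Partek and mm10; the counting program, annotation and strand setting are not given in the sources used here. Of the 38 members, 18 had values that are not whole in at least 1 library. Exons of 3 members overlap those of a gene on the same strand, and exons of 18 those of a gene on the other strand. Other-strand overlaps were in Dgka, Dgkd, Dgke, Dgkq, Dgkz, Itpr1, Itpr3, Pi4ka, Pi4kb, Pip4k2c, Plcb1, Plcb3, Plcg1, Plch2, Pld2, Prkca, Rasgrp4 and Unc13a. Reads shared between such genes were divided before deposit or cannot be told apart.

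After rounding to integers, the counts were tested with edgeR 4.0.16 in R 4.3.3 (filterByExpr, TMM scaling, glmQLFit and glmQLFTest on all genes, Benjamini-Hochberg adjustment, threshold 0.05). The SE is the size of the log2 fold change divided by the root of F. Levels between genes were compared as CPM per kilobase of exon from the GENCODE annotation of GRCm38, which gave a length for 99.2% of genes. Promoters came from RefSeq. Class sums and shares were compared with 2-sided exact permutation tests (scipy 1.17.1), and figures drawn with matplotlib 3.10.9. Scripts were tested on simulated counts.

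Every member is accounted for. Full statistics were given for members with an adjusted p under 0.05, then values for the highest member of each class, for members changed at least 2-fold that missed the threshold, and for called genes of the pathway lists; other members are given as values. The members, classes and gene lists were chosen with earlier results of these data known. From this RNA sequencing the study had named Pip5k1b, and of the pathway lists Dlc1 (as Stard12) and Plpp3, as differing between the lines. Their calls here come from the same data and are not independent of that report. Alternatives were DESeq2 1.42.0, upper quartile and library size scaling, no filter, at least 10 counts in every library, a gene length offset, the replicate number as a block, and leaving out each library. The GC content offset and the isoform differences were added after the data were seen.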

Additional observations from a re-analysis of the deposited data

How the results depend on the processing

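The count of members called, 3 with edgeR, was 7 with DESeq2 (5 higher, 2 lower), 5 with the gene length offset (2 lower), 0 with at least 10 counts in every library (5 at an unadjusted p under 0.05, and a filter that removes Plcb2 and Pip5k1b), and 0 to 22 when 1 library was left out (0 to 18 higher, 0 to 4 lower). It was 0 without each of the STARKO1 libraries, with 5 or 6 members at an unadjusted p under 0.05, and 22 without MA-10 replicate 1. Of all genes, 0.73 to 1.11% were called without a STARKO1 library and 65.7% without MA-10 replicate 1. With at least 10 counts in every library 6.44% were called. All genes called, 1079 in the report, were 3395 with DESeq2, 330 with library size scaling, 695 with at least 10 counts, and 89 to 7990 with 1 library left out. Pathway genes called, 10 in the report, were 22 with DESeq2, 4 with library size scaling, and 2 to 77 with 1 library left out. The median log2 fold change of the members was 0.63 with library size scaling, which moved that of all genes from -0.05 to 0.38, and 0.07 to 0.50 with 1 library left out. The share of calls that were higher was 47.5% with TMM, 63.6% with library size scaling and 55.6% with upper quartile scaling.

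Replicate numbers are the only possible pairing, and same-numbered libraries did not deviate together (r = -0.0165, 0.0455 and 0.0201). With the replicate block 1 member was called (Plcb2, higher, edgeR adjusted p = 0.0362), with 234 of all genes (1.96%) and 5 pathway genes. Pld2, which was not called, had a log2 fold change of 0.00666 there. The length offset with the block gave 1 member, 241 genes and 5 pathway genes. Pld3, not called, had a log2 fold change of 0.02 with that offset, with or without the block. The GC offset with the block gave 468 genes and a log2 fold change of 0.17 for Plcb1, which was not called.

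Over 572 values of 36 members under alternatives, 493 kept direction and side of the threshold, 26 came to pass it, 19 no longer did and 34, in 14 members, changed sign. None of the 14 was called in the report. Library size scaling gave log2 fold changes of 0.09 for Dgkd, 0.32 for Pi4ka, 0.00832 for Pip4k2c, 0.41 for Plcb1, 0.12 for Plcd3, 0.14 for Plcg1, 0.00837 for Pld2, 0.36 for Pld3, 0.11 for Prkci, 0.14 for Prkd2, 0.13 for Prkd3 and 0.17 for Unc13d, and class sums of 0.34 for PLC, 0.13 for PKD, 0.34 for PLD, 0.24 for PIP4K2 and 0.35 for UNC13. Upper quartile scaling gave 0.05 for Pi4ka, 0.12 for Plcb1 and 0.07 for Pld3. Plcb1 was at 0.02 with no filter and 0.14 with the GC offset.

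With 1 library left out, ranges that crossed 0 were -0.45 to 0.25 for Dgkd, -0.18 to 0.03 for Pi4ka, -0.08 to 0.53 for Pip5k1a, -0.15 to 0.21 for Plcb1, -0.49 to 0.24 for Plcd3, -0.58 to 0.76 for Pld2, -0.12 to 0.02 for Pld3, -0.41 to 0.28 for Prkd2, -0.00208 to 0.44 for Rasgrp4 and -0.63 to 0.12 for Unc13d. Class sums ranged from -0.22 to 0.07 for PLC, -0.12 to 0.50 for DAG kinases, -0.01 to 0.30 for PI 4-kinases and -0.45 to 0.22 for UNC13. The cause of these differences between settings was not tested. Counts of at most 22 in each MA-10 library limit Plcb2, Pip5k1b, Unc13a, Plch2, Dgkk and Pld6.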
